A study of Homo sapiens with 4 samples.

Results

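Glycolysis turns glucose into pyruvate and lactate, and hypoxia-inducible factor (HIF) is the transcription factor that raises many of its genes when oxygen is low. Of the 38 genes described here, fixed by name as glycolytic enzymes, glucose and lactate transporters and genes known to respond to hypoxia, 35 had a probe set annotated to that gene alone, out of 19775 genes on the array. This list was chosen with earlier results of these data known, so counts over it are a description and not a test. Each gene was read through its brightest such probe set, and the 32 bright enough to reach a signal of 64.6, the median over probe sets, were tested. LDHB, BNIP3 and EGLN3 lay under that level. SLC16A1, SLC16A3 and CA9 are not analysed here.

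The arrays came from MIA PaCa-2, an established line of human pancreatic carcinoma cells. The ING3 cells carried a lentivirus with full-length, FLAG-tagged ING3 in the pLenti CMV/TO Puro DEST vector, and the control cells a lentivirus with GFP. Stably transduced clones were selected, and their number is not given in the sources used here. Both groups were grown in high-glucose DMEM with fetal bovine and horse serum, and the oxygen level is not given in the sources used here. There were 2 arrays of ING3 cells (arrays a and b) and 2 of control cells (arrays a and b). The series' design text describes the arrays of a group as technical duplicates, so every p-value sets a difference against technical spread, and it compares 2 cell populations rather than independent cultures.

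As background, HIF is made of an oxygen-sensitive alpha subunit (HIF1A) and a stable partner. Prolyl hydroxylases of the EGLN family mark the alpha subunit for destruction when oxygen is present. Most steps of glycolysis can be run by several enzymes encoded by related genes, called isoforms, which differ in regulation and tissue use. ING3 belongs to the NuA4/TIP60 complex, which acetylates histones.

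Of the 32 tested genes, the glucose transporter SLC2A3 and the secreted protein ANGPTL4 rose in the ING3 cells and 0 fell, while 30 were not called (limma with Benjamini-Hochberg adjustment over all 12190 tested genes, adjusted p under 0.05). Over all tested genes 1.03% rose and 0.476% fell. The mean was higher in the ING3 cells for 27 of the 32 genes, against 48.3% of all tested genes. Their median log2 difference (ING3 minus control) was 0.11, against -0.0074 for all tested genes, and it was 0.087 without SLC2A3 and ANGPTL4. Both ING3 arrays stood above both control arrays for 18 of the 32 genes and below them for 1, against 24.3% and 24.9% of all tested genes. The shares over all tested genes come from a dimmer set. Of the members, 8 had a signal over 10000, 19 from 1000 to 10000 and 5 less, against 508, 4911 and 6771 of all tested genes. In these classes 7 of 8, 92 of 124 and 26 of 51 called genes rose. The part of brightness in the counts was not tested. A higher signal per cell and a larger share of cells with the transcript cannot be told apart in such bulk RNA. The count of 27 depended on the scaling: it was 23 after quantile normalization and 22 after cyclic loess, when 53.1% and 53.3% of all tested genes had the higher mean in the ING3 cells. The members' median was then 0.053 and 0.042, and that of all tested genes was 0.013 and 0.014.

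**Figure D1:**
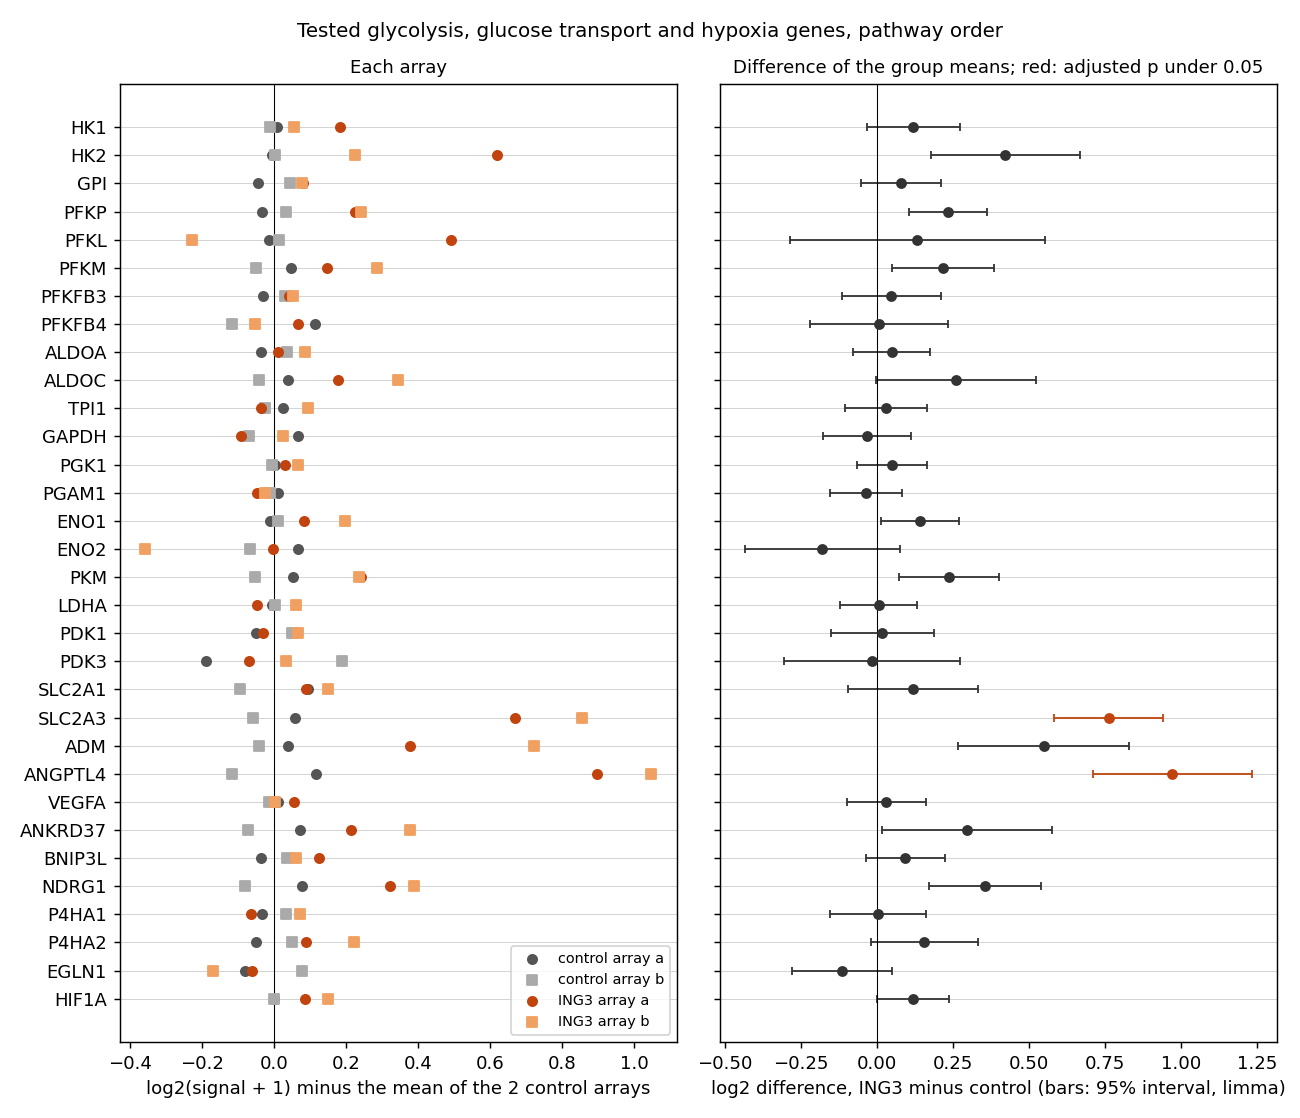
The left panel plots log2(signal + 1) of each of the 4 arrays minus the mean of the 2 control arrays, for the 32 tested genes in pathway order. The right panel plots the log2 difference of the group means with its 95% interval from limma. SLC2A3 and ANGPTL4, in red, were called. The genes within 0.05 of 0 are PFKFB3, PFKFB4, ALDOA, TPI1, GAPDH, PGK1, PGAM1, LDHA, PDK1, PDK3, VEGFA and P4HA1.

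The calls depended on the variance model. SLC2A3 and ANGPTL4 each had an adjusted p of 0.24 by limma without the intensity trend, under which 0 genes of the whole array were called (1686 at an unadjusted p under 0.05). A fit without 1 array has 1 residual degree of freedom, from the intact pair of the other group. It assumes that the lone array varies like that pair, and limma moderates this spread toward a trend over all tested genes. Such a fit is a reduced design, and a call lost or gained in it does not show that a change depends on the array left out. Without control array a the adjusted p values were 0.11 for SLC2A3 and 0.099 for ANGPTL4, and without control array b they were 0.13 for each (limma). The log2 differences in those fits stayed large, at 0.82 and 0.70 for SLC2A3 and 1.09 and 0.86 for ANGPTL4.

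The ING3 transcript itself was read at a signal of 338 and 373 on control arrays a and b and at 521 and 541 on ING3 arrays a and b. The groups did not overlap, at 0.58 on the log2 scale (SE 0.13), and ING3 was not called (adjusted p = 0.071 by limma). Whether this probe set lies in the part of ING3 that the virus carries was not tested. Of 7 markers listed for the line, KRT8, KRT19 and MUC1 rose, KRT18 and VIM were not called, and the epithelial markers EPCAM (15.2 to 37.9) and CDH1 (1.92 to 19.7) were under the filter. Their summed signal was 70644 and 68549 in control and 73076 and 78987 in ING3 cells. Of 14 markers of fibroblasts, leukocytes and endothelium 12 had a probe set, 6 were tested and 0 were called by limma (1 had an unadjusted p under 0.05), and their summed signal was 2533 and 2221 in control and 2263 and 2284 in ING3 cells. The 6 tested were COL3A1 (1289 to 1414), CDH5 (257 to 328), COL1A1 (181 to 288), PECAM1 (100 to 147), CD3E (38.8 to 129) and DCN (56.1 to 97.8). PTPRC, the defining leukocyte marker, was under the filter at 9.384 to 15.97. As a sign of RNA quality, ACTB gave a 3'/5' ratio of 2.58 on control array a and 1.80 on control array b, and of 2.05 and 2.03 for the ING3 cells. For GAPDH it ranged from 0.903 to 0.934 over the 4 arrays. The part of these values in the results was not tested.

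HIF binds a short core, ACGTG or GCGTG, in the promoters of its targets, and promoters of members are shown here to set these letters beside how the genes behaved. RefSeq promoters of GRCh38.p14 (250 bases before to 50 after a start) matched 33 of the 38 genes, and SLC2A3, SLC16A1, VEGFA, BNIP3L and NDRG1 were unmatched. A core on either strand was found for at least 1 promoter of 30 of these 33 genes, against 52.4% of all genes in the table, and in 40 of their 60 promoters (66.7%), against 48.45% of all 35116 promoters. Many members were listed because they respond to hypoxia, so these shares are no test of the list. The 33 genes had 60 promoters, against 35116 for 27305 genes, which gave a member more chances of a core. The 5 stretches of 80 bases below lie upstream of a start, on its strand, with the cores in capitals (CACGT and CACGC are the same cores read from the other strand, and CACGTG holds a core on each strand, which is also the E-box of MYC and related factors). They show ANGPTL4, which rose, then ADM and ANKRD37, which had higher means and were not called, and PGK1 and LDHA, which differed by under 0.05 (log2). The stretches are ANGPTL4 at chr19:8363905-8363984, ADM at chr11:10304932-10305011, ANKRD37 at chr4:185396646-185396725, PGK1 at chrX:78104009-78104088 and LDHA at chr11:18394441-18394520, all on the plus strand.
ANGPTL4: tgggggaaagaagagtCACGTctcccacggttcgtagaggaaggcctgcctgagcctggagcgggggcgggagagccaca
ADM: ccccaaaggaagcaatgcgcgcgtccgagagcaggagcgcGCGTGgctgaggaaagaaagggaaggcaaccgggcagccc
ANKRD37: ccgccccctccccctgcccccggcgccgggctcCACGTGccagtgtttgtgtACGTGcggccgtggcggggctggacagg
PGK1: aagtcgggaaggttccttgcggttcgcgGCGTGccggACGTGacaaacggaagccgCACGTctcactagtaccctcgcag
LDHA: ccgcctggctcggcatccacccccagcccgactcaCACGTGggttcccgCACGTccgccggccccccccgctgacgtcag
The windows of PGK1 and LDHA held 3 cores each, that of ANKRD37 held 3, and those of ANGPTL4 and ADM held 1 each. A core is a match of letters and not a measured binding site.

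Glucose enters through the transporters of the SLC2A family. SLC2A3 (GLUT3), a carrier with high affinity for glucose, had a signal of 2775 and 2559 on control arrays a and b and of 4239 and 4827 on ING3 arrays a and b. All ING3 values lay above all control values, and the 1.70-fold rise (log2 difference 0.76, SE 0.080, adjusted p = 0.0044 by limma) ranked 11th by p among all tested genes. SLC2A1 (GLUT1), the common basal transporter, had 1193 and 1046 in control and 1189 and 1240 in ING3 cells. Those groups overlapped, and the difference of 0.12 had a 95% interval of -0.094 to 0.33. With a dim probe set of SLC2A1 averaged in it was 0.49.

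The size of the SLC2A3 change depended on the probe set. The other probe sets annotated to SLC2A3 alone gave log2 differences of 0.42 and 0.31, in each case without overlap between the groups. A pair of probe sets shared with its near-identical neighbour SLC2A14 gave 0.52 and 0.37, again without overlap. All 5 are of the s or x kind, which can match more than 1 transcript, so the share of SLC2A14 in the signal is uncertain. When all probe sets of a gene were averaged, SLC2A3 differed by 0.50 and was not called (adjusted p = 0.060 by limma).

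**Figure D2:**
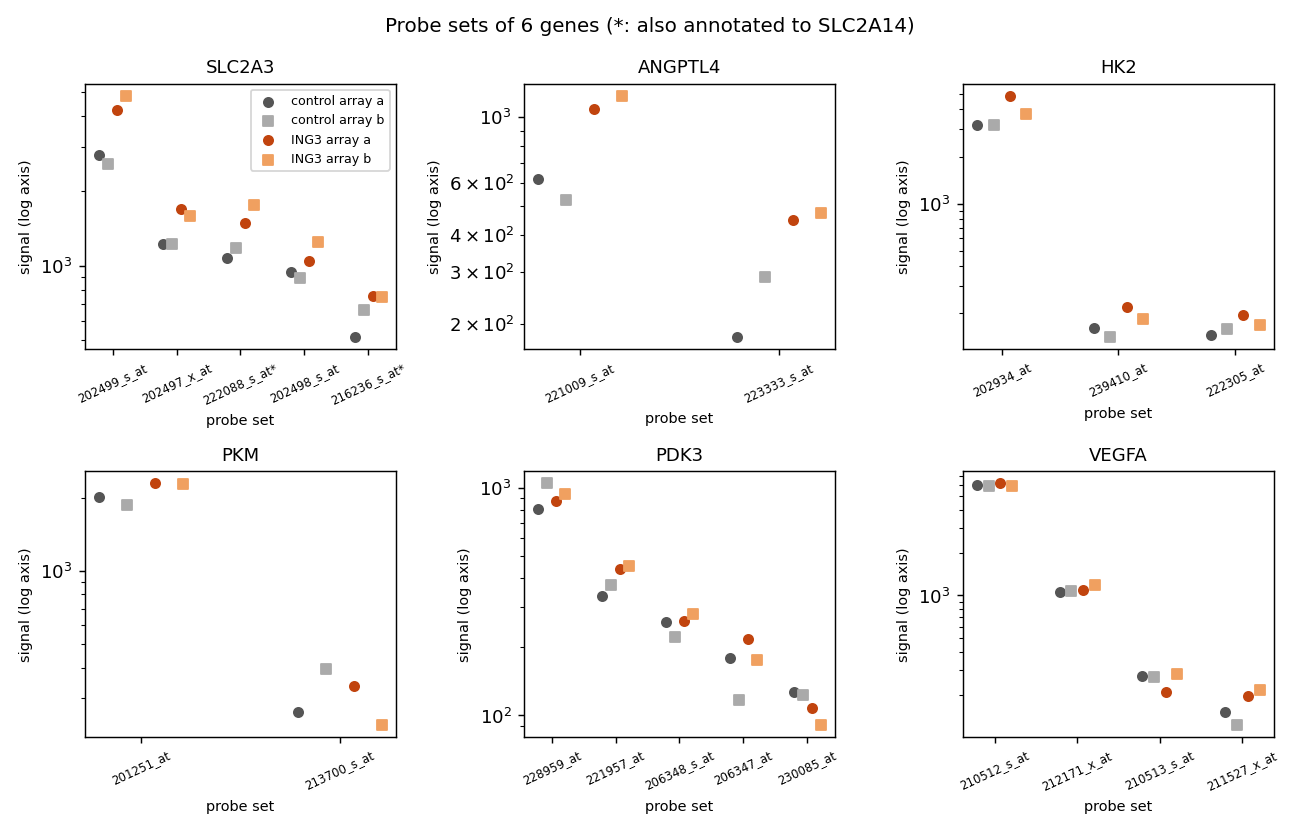
Signal on a log axis for every probe set past the filter of SLC2A3, ANGPTL4, HK2, PKM, PDK3 and VEGFA, with 1 point per array. The probe sets of SLC2A3 and ANGPTL4 are all higher in the ING3 cells, whereas those of PKM, PDK3 and VEGFA go different ways.

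Of the 18 tested enzymes from hexokinase to lactate dehydrogenase, PFKFB regulators included, 0 were called by limma. Of all tested genes 1.03% rose and 0.476% fell. Among these 18, 5 had an unadjusted p under 0.05 by limma, against 2161 of all 12190 tested genes. The mean was higher in the ING3 cells for 15 (48.3% of all tested genes), and 10 did not overlap upward (24.3%) and 1 downward (24.9%). Their median log2 difference was 0.064, over a range of -0.18 to 0.42. The count of 15 depended on the scaling. ALDOA, TPI1 and LDHA had the lower mean in the ING3 cells after quantile normalization and after cyclic loess, and PGK1 after cyclic loess. The share of all tested genes with the higher mean was then 53.1% and 53.3%.

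Hexokinase traps glucose in the cell as glucose 6-phosphate. HK2, the isoform induced in many tumours, had 3180 and 3197 in control and 4897 and 3730 in ING3 cells. The ING3 arrays stood above the control arrays but also apart from each other, and the log2 difference of 0.42 (SE 0.11) did not pass (adjusted p = 0.093 by limma). Without ING3 array b the difference was 0.62, and without ING3 array a it was 0.23. The HK2 duplicates lay 0.0074 apart in control cells and 0.39 apart in ING3 cells. Its other probe sets differed by 0.41 and 0.25, both without overlap. HK1, the constitutive isoform, had 3450 and 3405 in control cells and 3896 and 3562 in ING3 cells, a difference of 0.12 (95% interval -0.033 to 0.27).

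GPI, which turns glucose 6-phosphate into fructose 6-phosphate, had 6863 and 7297 in control and 7484 and 7477 in ING3 cells, a difference of 0.080 with an interval of -0.052 to 0.21. The difference was 0.014 after quantile normalization and 0.030 after cyclic loess.

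Phosphofructokinase commits the sugar to glycolysis, with a platelet (PFKP), a muscle (PFKM) and a liver (PFKL) subunit. PFKP had 6688 and 7005 in control cells and 8003 and 8089 in ING3 cells, with no overlap, at 0.23 on the log2 scale (SE 0.057, adjusted p = 0.081 by limma). Averaging in a probe set of PFKP under the filter (36.4 and 30.1 against 20.8 and 18.5) turned its difference to -0.25. PFKM had 2981 and 2788 against 3195 and 3517, also without overlap, at 0.22 (SE 0.074, adjusted p = 0.18 by limma). PFKL was read at 1055 and 1076 in control and at 1499 and 910 in ING3 cells, so the ING3 duplicates lay on either side of the control arrays. The difference of 0.13 for PFKL had an interval of -0.29 to 0.55. Its other probe set, at 609 and 547 against 612 and 561, differed by 0.023. Without ING3 array b the difference of PFKL was 0.49 and without ING3 array a it was -0.23. The PFKL duplicates lay 0.028 apart in control cells and 0.72 apart in ING3 cells.

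The PFKFB enzymes set the level of fructose 2,6-bisphosphate, the activator of phosphofructokinase. PFKFB3 had 1879 and 1962 in control and 1976 and 1994 in ING3 cells, a difference of 0.048. PFKFB4, a HIF target, had 1342 and 1144 against 1299 and 1196, with overlap and a difference of 0.0083 (interval -0.22 to 0.24).

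The middle of the pathway was read by very bright probe sets. Aldolase A (ALDOA), which splits the sugar, had 19529 and 20528 in control cells and 20176 and 21254 in ING3 cells. Triose phosphate isomerase (TPI1) had 20764 and 20053 against 19901 and 21799. Phosphoglycerate kinase (PGK1), the step that first yields ATP, had 22974 and 22828 against 23385 and 23984. The differences were 0.049, 0.030 and 0.048, with upper interval bounds of 0.17, 0.17 and 0.16. After cyclic loess they were -0.038, -0.057 and -0.042, and after quantile normalization those of ALDOA and TPI1 were also below 0, at -0.0036 and -0.017, and that of PGK1 was 0.012. The other 5 probe sets of PGK1 ranged from -0.013 to 0.15. ALDOC, the aldolase of brain, was dimmer at 576 and 545 in control and 634 and 712 in ING3 cells, with no overlap and a difference of 0.26 (SE 0.12, adjusted p = 0.29 by limma). A dimmer probe set of TPI1 went the other way, from 465 and 582 to 453 and 412.

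GAPDH, the oxidising step and a common reference gene, had 27920 and 25406 in control cells and 25026 and 27087 in ING3 cells, with overlap and a difference of -0.033, which was -0.13 after cyclic loess. Its 5', middle and 3' control probe sets, which were left out of the tests, differed by -0.014, -0.035 and -0.025. PGAM1, the mutase of the next step, had 13632 and 13408 against 13097 and 13283. It was the member whose ING3 arrays both lay below the control arrays, by 0.036, with an interval of -0.15 to 0.082. The difference of PGAM1 was -0.099 after quantile normalization and -0.11 after cyclic loess, and neither passed.

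Enolase makes phosphoenolpyruvate. ENO1, the ubiquitous isoform, had 21335 and 21654 in control and 22780 and 24650 in ING3 cells, without overlap, at 0.14 (SE 0.057, adjusted p = 0.25 by limma), and at 0.051 after cyclic loess. Its other probe sets past the filter differed by 0.11 and -0.013, and averaging in a dimmer one turned the difference of ENO1 to -0.17. ENO2, the neuronal isoform, had 2149 and 1957 against 2048 and 1600, a difference of -0.18 with an interval of -0.43 to 0.074. ING3 array b alone lay below the control arrays.

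Pyruvate kinase (PKM) makes pyruvate, as the splice forms PKM1 and PKM2. Its brighter probe set had 2007 and 1867 in control cells and 2288 and 2280 in ING3 cells, a difference of 0.24 (SE 0.073, adjusted p = 0.14 by limma). The other, at 264 and 394 against 335 and 232, overlapped and differed by -0.21, and with both averaged the difference of PKM was 0.016. Which splice form each probe set reads is not given in the sources used here.

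Lactate dehydrogenase regenerates NAD+ by making lactate. LDHA, the A subunit, had 24750 and 24890 in control and 24014 and 25885 in ING3 cells, which overlapped and differed by 0.0065 (interval -0.12 to 0.13). The sign turned to -0.0073 after quantile normalization and to -0.086 after cyclic loess. LDHB, the B subunit, was under the filter on both of its probe sets, the brighter of which had 22.3 and 29.9 in control cells and 41.8 and 7.17 in ING3 cells. No direction can be read from LDHB at that signal, in either group. Pyruvate dehydrogenase kinases inhibit pyruvate dehydrogenase, a mitochondrial enzyme that uses pyruvate. PDK1, a HIF target, had 2128 and 2279 against 2156 and 2307, a difference of 0.018. PDK3 had 805 and 1046 against 875 and 940 on its brightest probe set, a difference of -0.017, while its other 4 probe sets ranged from -0.33 to 0.43, and its sign turned after quantile normalization (0.019) and cyclic loess (0.015).

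Isoform use was compared through the ratio of the probe sets of a pair within each array, which can show unequal change but not which isoform is more abundant. Of 13 pairs listed, 9 had both isoforms past the filter. The ratio of SLC2A3 to SLC2A1 was 0.58 and 0.71 above the control mean (log2) on ING3 arrays a and b, while the control arrays lay 0.036 below and above it. The ratio of HK2 to HK1 was 0.43 and 0.17 above, against control arrays that differed by 0.026. ENO1 over ENO2 was higher by 0.085 and 0.56, with the nearest control array at 0.078. ALDOA over ALDOC was lower on both ING3 arrays, at -0.17 and -0.26, and P4HA1 over P4HA2 at -0.15 on each.

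These 5 ratios did not overlap between the groups and the other 4 did. Among all tested genes, each read singly, 24.3% did not overlap upward and 24.9% downward. An exact two-sided permutation test of 2 against 2 arrays cannot give less than p = 0.33, the value for each of the 5 (adjusted p = 0.60 over the 9 pairs), so none could pass. The 4 ratios that overlapped were PFKP and PFKM over PFKL, PFKFB3 over PFKFB4 and PDK1 over PDK3. With all probe sets of a gene averaged, the SLC2A3 ratio differed by 0.011 instead of 0.64, since SLC2A1 then takes in a dim probe set with 22.1 and 15.6 in control and 33.0 and 35.9 in ING3 cells, and the ENO1 ratio differed by 0.0083 instead of 0.32.

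**Figure D3:**
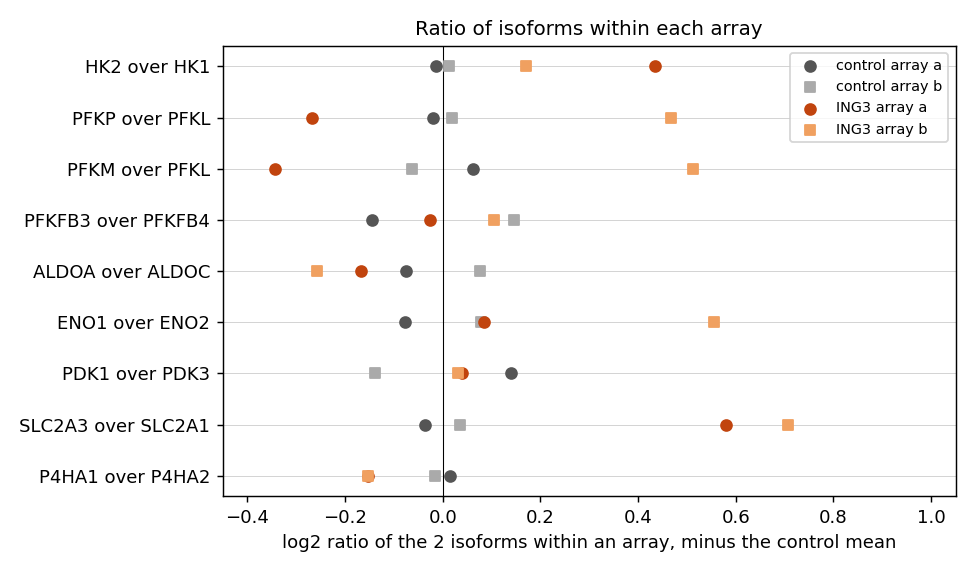
Each point is the log2 ratio of 2 isoforms within 1 array, minus the mean of the 2 control arrays, for the 9 pairs with both isoforms tested. The ING3 arrays of SLC2A3 over SLC2A1 sit at 0.58 and 0.71, and those of PFKP and PFKM over PFKL lie on either side of 0.

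Of 10 tested members from the HIF pathway, 1 rose (1.03% of all tested genes) and 0 fell (0.476%), 9 had the higher mean in the ING3 cells (48.3%), and 7 did not overlap upward (24.3%). Their median log2 difference was 0.14. The count of 9 depended on the scaling: VEGFA and P4HA1 had the lower mean in the ING3 cells after quantile normalization and after cyclic loess. The share of all tested genes with the higher mean was then 53.1% and 53.3%.

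Among the secreted products of HIF targets, ANGPTL4, an inhibitor of lipoprotein lipase that is also induced by PPAR factors, had 618 and 526 on control arrays a and b and 1063 and 1181 on ING3 arrays a and b. It rose 1.96-fold without overlap (log2 difference 0.97, SE 0.12, adjusted p = 0.0077 by limma), and its 95% interval ran from 1.64-fold to 2.35-fold. Its second probe set had 181 and 289 against 448 and 474, a difference of 1.01, so both probe sets gave a similar size. ADM, the vasodilator adrenomedullin, had 717 and 678 against 906 and 1150. The groups of ADM did not overlap, and the difference of 0.55 (SE 0.12) did not pass (adjusted p = 0.070 by limma). Without ING3 array a it was 0.72 and without ING3 array b 0.38. The ADM duplicates lay 0.080 apart in control cells and 0.34 apart in ING3 cells. VEGFA, the main angiogenic factor under HIF, had 5979 and 5875 against 6167 and 5946 on its brightest probe set. Those values overlapped, with a difference of 0.031 and an interval of -0.099 to 0.16, which turned to -0.017 after quantile normalization and to -0.012 after cyclic loess. The other VEGFA probe sets differed by 0.093, -0.15 and 0.59, and the last of these was the dimmest, at 150 and 122 against 194 and 214.

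Among intracellular targets, NDRG1, a stress-induced protein, had 1769 and 1586 in control cells and 2093 and 2196 in ING3 cells, without overlap, at 0.36 (SE 0.082, adjusted p = 0.071 by limma). ANKRD37, a small ankyrin-repeat protein, had 533 and 483 against 588 and 660, also without overlap, at 0.30 (SE 0.12, adjusted p = 0.26 by limma). BNIP3L, a receptor for mitophagy, had 9197 and 9665 against 10277 and 9845, a difference of 0.093 (interval -0.036 to 0.22), which was 0.041 after quantile normalization and 0.033 after cyclic loess. Its relative BNIP3 was under the filter, with 21.2 and 3.68 against 14.9 and 29.9 on the brighter of its probe sets, which gives no direction.

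The collagen prolyl hydroxylase subunits P4HA1 and P4HA2, both HIF targets, had differences of 0.0038 and 0.16, the first of which turned to -0.028 after quantile normalization and to -0.018 after cyclic loess. P4HA1 had 3365 and 3527 against 3296 and 3621, with overlap, and P4HA2 had 2085 and 2233 against 2294 and 2520, without. A second probe set of P4HA2 went the other way, from 493 and 617 to 435 and 471, and with a very dim one also averaged in the difference of P4HA2 was 0.28.

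In the oxygen-sensing arm, HIF1A, the alpha subunit, had 16743 and 16726 in control and 17772 and 18567 in ING3 cells. The groups did not overlap, and the difference of 0.12 (SE 0.053, adjusted p = 0.29 by limma) had an interval of -0.0013 to 0.24. It was 0.056 after quantile normalization and 0.037 after cyclic loess. HIF1A is controlled mainly at the level of protein stability, which the arrays do not measure. EGLN1 (PHD2), the main hydroxylase of HIF1A, had 4792 and 5347 against 4856 and 4506, with overlap and a difference of -0.11 (interval -0.28 to 0.050). Its other probe sets past the filter gave -0.082 and 0.22, and with a very dim one averaged in the difference was 0.24. EGLN3 (PHD3), a hydroxylase that is itself a HIF target, was under the filter at 38.75 and 13.98 against 38.59 and 32.39.

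Of the 35 genes with a probe set, 16 had another one past the filter, and in 8 of these all of them had the direction of the brightest.

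The precision differed with brightness. The median SE of the members was 0.056 over a signal of 10000, 0.074 from 1000 to 10000 and 0.12 below. For all tested genes it was 0.057, 0.077 and 0.18. The size of the differences also varied with brightness. The 8 members with a signal over 10000 (ALDOA, ENO1, GAPDH, HIF1A, LDHA, PGAM1, PGK1 and TPI1) had differences from -0.036 to 0.14 and a median size of 0.042, against 0.062 for all 508 genes that bright. The 19 members between 1000 and 10000 had a median size of 0.12, against 0.097 for all 4911 such genes, and the 5 dimmer tested members, ADM, ALDOC, ANGPTL4, ANKRD37 and PDK3, had 0.30, against 0.18 for 6771 genes. Whether the brightest probe sets were near the top of the scanner's range, where differences shrink, was not tested. Between duplicates the median gap over the 32 members was 0.080 for the control arrays and 0.11 for the ING3 arrays, beside a median size of the group difference of 0.12.

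**Figure D4:**
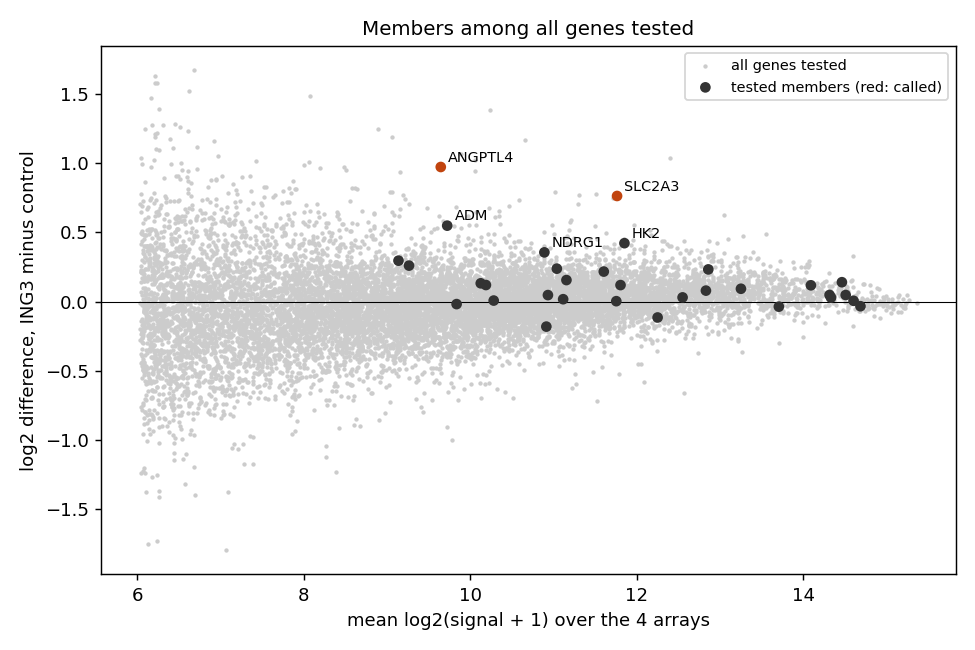
The log2 difference between the groups against the mean log2(signal + 1) over the 4 arrays, for all 12190 tested genes in grey and the 32 tested members in dark or, where called, red. Spread narrows toward bright genes, and SLC2A3 and ANGPTL4 stand above most genes of their brightness.

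Other genes of these pathways were read from 8 further lists, with 129 genes in all, of which 91 were tested. The lists were chosen with earlier results of these data known, so their counts are a description and not a test. Of the 91 tested genes 8 rose, 2 fell and 81 were not called, where 1.03% of all tested genes rose and 0.476% fell. The mean was higher in the ING3 cells for 61 of the 91 (48.3% of all tested genes). Among other HIF targets 6 of 29 rose and 1 fell, with a median difference of 0.047. GPRC5A, an orphan receptor, rose from 10081 and 10171 to 13762 and 14699 (log2 difference 0.49, adjusted p = 0.0064 by limma). The others that rose were HMOX1, the inducible heme oxygenase (1.59-fold), MAFF, a small MAF factor (1.32-fold), LOXL2, a lysyl oxidase (1.32-fold), PLIN2, a coat protein of lipid droplets (1.30-fold), and ERO1A, an oxidase of the endoplasmic reticulum (1.28-fold). The other probe set of PLIN2 differed by 0.0078, and those of ERO1A by 0.059 and 0.21 against 0.35 for the one read, so both sizes are uncertain. PGF, placental growth factor, fell by 0.52 on the log2 scale on an x-kind probe set, from 1357 and 1368 to 986 and 915, and its other probe set differed by 0.96, in the opposite direction.

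Among regulators of the HIF pathway 0 of 11 rose, and MTOR, the kinase of nutrient signalling, fell by 0.85 on the log2 scale, from 698 and 589 to 330 and 382 (adjusted p = 0.027 by limma). EP300, a HIF coactivator, had a difference of -0.27 (SE 0.13) and was not called. For genes of the entry and use of pyruvate in mitochondria, 1 of 12 rose and 0 fell. That gene was PDP1, the phosphatase that opposes the PDK enzymes, which went from 5529 and 5744 to 7223 and 7379 (1.29-fold, adjusted p = 0.020 by limma), with its second probe set at 0.48. PDHX, a subunit of pyruvate dehydrogenase, differed by 0.17 and was not called. The mean was higher in the ING3 cells for 9 of the 12 genes (48.3% of all tested genes) and lower for 3. Their log2 differences ran from -0.77 to 0.37.

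In glycogen metabolism PYGL, the liver form of glycogen phosphorylase, rose 1.33-fold from 4532 and 4580 to 5675 and 6503 (adjusted p = 0.031 by limma), and 0 of 6 tested genes fell. PYGB, the brain form, differed by 0.18 and was not called. No gene was called by limma among 10 other glycolytic isoforms, 11 other transport genes, 7 genes of the pentose phosphate pathway and 5 of gluconeogenesis and the glycerol branch. In these lists 3, 3, 3 and 0 genes had an unadjusted p under 0.05 by limma, against 2161 of all 12190 tested genes. The genes with the smallest p in these lists were PGM1 (0.25) and PFKFB2 (0.39), TXNIP (0.25) and BSG (0.27), PGD (0.28) and TKT (0.22), and PCK2 (-0.042) and GPD2 (-0.055), with the log2 difference in parentheses. TXNIP, which is induced by glucose and lowers its uptake, had 14457 and 15064 in control and 16839 and 18275 in ING3 cells, and BSG is the partner of the lactate transporters.

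**Figure D5:**
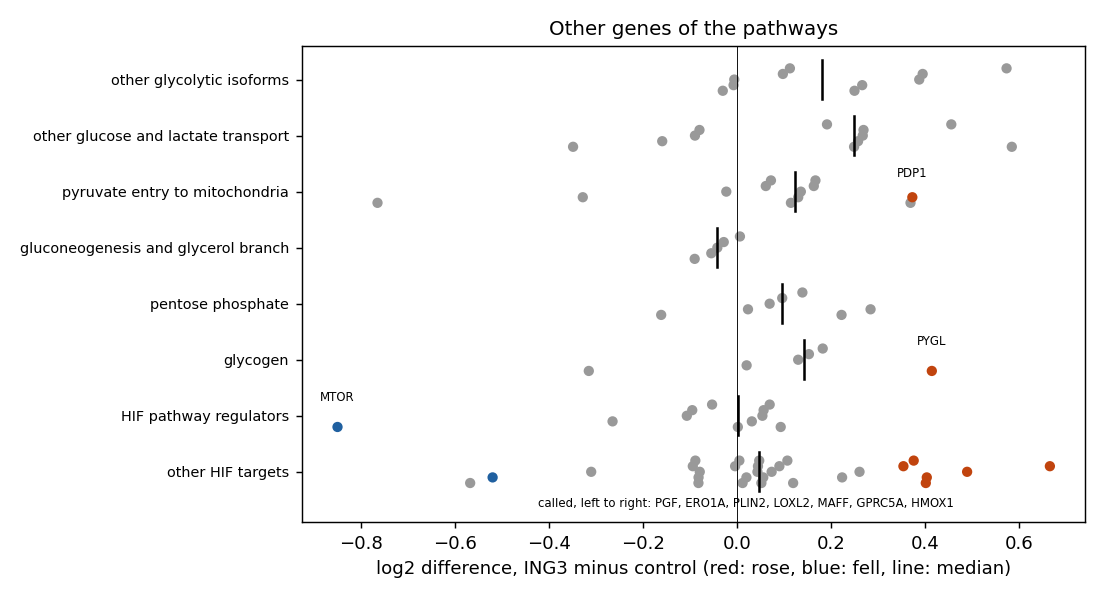
Log2 difference between the groups for the tested genes of the 8 other pathway lists, with the median of each list as a line and called genes in colour. Other HIF targets make up 29 of the 91 genes and 6 of the 8 that rose, and MTOR at -0.85 lies lowest. The lists were chosen with earlier results of these data known.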

How the data were processed

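The authors deposited 1 table of linear signal intensity values for 54675 probe sets on 4 arrays, using MAS5 in Affymetrix Expression Console per the submitters' processing notes, which name no version. Each array had been scaled by 1 factor: the mean signal after trimming 2% of probe sets at each end was 500.1. MAS5 leaves dim probe sets noisy, and detection calls were not used here. The number of arrays limits the precision.

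The 62 control probe sets were left out. GEO's platform annotation, with symbols looked up in the RefSeq table of GRCh38.p14 (0 changed), gave 41097 probe sets with 1 symbol and 1801 with several; the rest were unnamed here. A gene was read by its brightest probe set (mean log2(signal + 1)). Folds refer to signal + 1, so changes of dim genes are understated. Genes whose mean reached the median of all probe sets were tested across all genes with limma 3.58.1 in R 4.3.3 (lmFit, eBayes with an intensity trend, two-sided, 2 residual and 7.35 prior degrees of freedom). Intervals are 95% and SE is moderated. The fit was also run on simulated data with noise drawn from its own variance model, which checks the code and not that model.

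The members, lists and isoform pairs were chosen with earlier results of these data known. The rule for names took all members and their probe sets where these disagreed, ING3, the GAPDH and ACTB controls, the called genes of the other lists and, where under 3 of a list were called, those with the 2 smallest p. Alternatives covered the pseudocount (16), filter, normalization, variance trend, probe set choice, each array left out and a replicate block.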

Additional observations from a re-analysis of the deposited data

How the results depend on the processing

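Without the filter on dim genes 42 genes rose and 12 fell, against 125 and 58 in the fit reported. After quantile normalization 83 rose and 36 fell, after cyclic loess 90 and 36, and with averaged probe sets 26 and 11. Without an intensity trend limma called 0 genes and 0 members (1686 genes had an unadjusted p under 0.05). With averaged probe sets 1 member rose (ANGPTL4), and with probe sets not of the x or s kind where a gene has one (SLC2A3 and ANGPTL4 have none) 83 genes rose. Leaving out 1 array, which takes the spread from the other group's pair alone, gave 2 to 189 genes that rose, 0 to 116 that fell and 0 to 4 members that rose. Without control array a, as without control array b, 2 genes rose and 0 fell (1382 and 1474 at an unadjusted p under 0.05, limma); without ING3 array a 189 rose and 116 fell. The arrays share only the letters a and b: deviations of same-lettered arrays correlated at r = 0.029 over genes. With the letter as a replicate block 263 genes rose and 179 fell, and 5 members rose (ADM, ANGPTL4, HK2, NDRG1 and SLC2A3).

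Of 381 member differences under the alternatives, 35 changed sign, in 14 genes, none of them called in the fit reported. SLC2A3 and ANGPTL4 kept their direction under every alternative. The cause of these changes was not tested. Signals near or under the filter, as of LDHB, BNIP3 and EGLN3, limit what can be read.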
